A study of Mus musculus with 8 samples.

Results

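The cluster that the authors named mural cells held 390 of the 55672 annotated nuclei of the mouse striatum (0.701%), and was 1 of 18 annotated clusters. Its members were all nuclei that carry this name in the deposited table of nuclei, with none added or removed. Nuclear RNA and open chromatin were read from the same nuclei with the 10x Genomics Multiome assay in 32 mice aged 12 weeks, to ask how gene expression in striatal cells varies with genetic background. The mice belonged to 8 inbred strains, WSB/EiJ, PWK/PhJ, CAST/EiJ, A/J, NOD/ShiLtJ, 129S1/SvImJ, NZO/HlLtJ and C57BL/6NJ, as the deposited table writes them, and the labels give no treatment. The series' design text writes C57BL/6J and NZO/H1LtJ for the strains listed here as C57BL/6NJ and NZO/HlLtJ. Frozen tissue of 1 mouse of every strain was pooled as nuclei in each of 4 batches, so that a mouse is a combination of batch and strain here, and each strain has 4 mice. A batch held 4 male and 4 female mice, and the sex of single mice was not used.

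Mural cells sit on the outer wall of blood vessels. Pericytes cover capillaries and are embedded in the basement membrane they share with endothelial cells, whereas smooth muscle cells ring arterioles and arteries and contract. Endothelial cells release platelet-derived growth factor B, which holds pericytes to the vessel through their receptor Pdgfrb, and Notch3 signalling keeps mural cells in place. In the brain, pericytes help to maintain the blood-brain barrier and capillary blood flow. Most neurons of the striatum are the projection neurons that carry the dopamine receptor Drd1 or Drd2.

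Batches 1 to 4 gave 111, 122, 60 and 97 of the mural nuclei. A mouse contributed between 2 and 41 of them, with a median of 10, and 31 of the 32 mice had at least 5. The mural nuclei held 1316388 counts in all, each count being 1 unique molecular identifier (UMI). The median was 1477 UMIs per mural nucleus, with a range of 428 to 26224, against 3821 in the 851 nuclei of the endothelium cluster, 1644 in the 132 of the fibroblast cluster and 6505 in the 15395 of the Drd1+ neuron cluster. All 390 were called singlets of the same strain from both the RNA and the ATAC reads, and all 390 were singlets by DoubletFinder. Strain differences reveal doublets of 2 mice but not of 1 mouse: over all 89339 barcodes of the series, 16097 were called doublets of 2 strains from the RNA. Of the mural nuclei, 19 had a barcode that also occurred among annotated nuclei of another batch, and 0 shared a barcode with each other.

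The name was first checked with genes that define mural cells. Pdgfrb and Vtn, which encodes vitronectin, a matrix protein made by brain pericytes, were higher in the mural cluster than in the endothelium cluster in every batch. Rgs5, a regulator of G-protein signalling widely used to mark pericytes, was lower there than in endothelium in every batch. Levels are CPM, counts per 1000000 of the counts summed over a cluster, and cluster levels carry no test here because the authors drew the clusters from the same counts.

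Pdgfrb stood at 635, 612, 506 and 905 CPM in the mural nuclei of batches 1 to 4 and at 123, 145, 8.77 and 120 CPM in endothelium. The batches of the 2 clusters did not overlap, and the log2 ratio of mural over endothelium was 2.47, with 2.36, 2.07, 5.70 and 2.90 in the single batches (SD 1.66, n = 4). Vtn stood at 2218, 1990, 3149 and 3858 CPM in mural nuclei against 827, 767, 54.8 and 879 CPM in endothelium, a log2 ratio of 1.88 (SD over batches 2.12). Batch 3 endothelium was far below the other batches for both genes. Rgs5 stood at 407, 447, 174 and 549 CPM in mural nuclei and at 2203, 2251, 217 and 1494 CPM in endothelium. Its log2 ratio was -2.20 over all batches and -0.32 in batch 3, where the levels of the clusters were closest. Against Drd1+ neurons, where the 3 genes stood at 1.18, 9.73 and 2.22 CPM, the log2 ratios were 8.25 for Pdgfrb, 7.97 for Vtn and 6.97 for Rgs5.

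Shares of nuclei with at least 1 UMI were compared at equal depth. Every nucleus was thinned to 1000 UMIs, which left 325 mural nuclei and dropped 65 shallower ones. Pdgfrb was then detected in 58.2% of mural nuclei (95% Clopper-Pearson interval 52.6 to 63.6%), in 7.54% of endothelium nuclei and in 0.117% of Drd1+ neurons, which serve as the level given by free RNA. Vtn was detected in 73.5% of mural nuclei, 19.9% of endothelium nuclei and 1.10% of Drd1+ neurons. For Rgs5 the shares were 35.1%, 41.0% and 0.227%. Without thinning, 83.3% of mural nuclei had Pdgfrb, 91.8% had Vtn and 53.1% had Rgs5, at median depths of 1477 UMIs against 6505 in Drd1+ neurons, where these shares were 0.753%, 5.82% and 1.20%. Without thinning, Rgs5 was found in 47.7% of endothelium nuclei, below its share of mural nuclei, so the order of the clusters for Rgs5 changed with the thinning. The intervals cover counting error only.

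**Figure D1:**
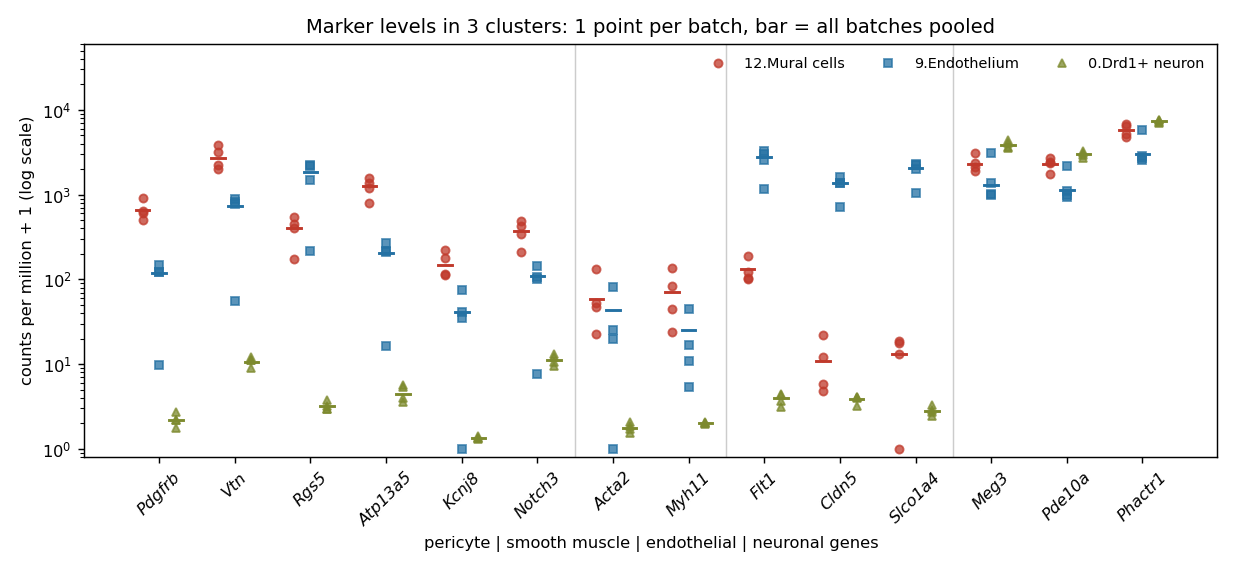
Levels of 14 marker genes in the mural, endothelium and Drd1+ neuron clusters, as CPM plus 1 on a log axis; each point is 1 batch and each bar the pooled level. Pdgfrb and Vtn lie higher in mural nuclei than in endothelium in all 4 batches, Rgs5 lies lower, Flt1, Cldn5 and Slco1a4 lie far lower, and the neuronal genes Meg3, Pde10a and Phactr1 are near their level in Drd1+ neurons.

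Pericyte genes were high in the cluster. Of 18 listed pericyte genes, all of which reached 10 CPM, 13 were at least 2-fold higher than in endothelium in all 4 batches and 0 were lower, while 1.69% of the 11163 genes compared were that much higher. Their median log2 ratio was 1.82, with batch values of 1.58, 1.77, 5.07 and 2.01, against a median of 0.01 over all genes. Against Drd1+ neurons 18 of 18 were at least 2-fold higher in all batches, where 7.59% of 10379 genes were, and the median log2 ratio was 5.69 (SD over batches 0.40). Against Drd2+ neurons 18 of 18 were higher as well, beside 7.88% of genes, with a median of 6.04.

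Named members of the list included channels, transporters and receptors. Kcnj8 and Abcc9 form the ATP-sensitive potassium channel of mural cells. Kcnj8 stood at 149 CPM in mural nuclei (batches 114, 110, 178 and 222) and 40.6 CPM in endothelium. Abcc9 stood at 374 CPM (370, 455, 220 and 415) against 108 CPM. Atp13a5, a P-type ATPase that marks brain pericytes, reached 1250 CPM (1203, 1362, 796 and 1591) against 202 CPM in endothelium, 232 CPM in fibroblasts and 3.48 CPM in Drd1+ neurons. The 4 mural batches of each of these 3 genes lay above all 4 endothelium batches. The 5 pericyte genes that missed the 2-fold rule were Higd1b (60.8 CPM in mural nuclei, 81.9 CPM in endothelium), Ndufa4l2 (99.5 and 74.6 CPM), Cox4i2 (48.6 and 28.3 CPM), Anpep (34.2 and 11.2 CPM) and Ebf1 (1225 and 949 CPM).

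Compared with each of the other 17 clusters at once, 14 of the 3868 genes of at least 50 CPM were at least 2-fold higher in mural nuclei than in the highest other cluster in all 4 batches. Ranked by the lowest of the 4 batch ratios, the leading genes were Tbx3os1, Slc38a11, Carmn, Morrbid, Notch3, Atp13a5, Art3, Abcc9, Gper1, Kcnj8, Rasl12 and Tbx2. Tbx3os1, an RNA antisense to the T-box gene Tbx3, stood at 238 CPM (205, 265, 166 and 317 over the batches), and its highest level elsewhere was 29.0 CPM in endothelium. Carmn, a long noncoding RNA of smooth muscle and pericytes, stood at 141 CPM (122, 165, 77.3 and 194), with 27.6 CPM in fibroblasts as the next level. Morrbid, a long noncoding RNA known from short-lived myeloid cells, stood at 279 CPM and was next highest at 39.9 CPM in macrophages. Strand use in the counting is not given in the sources used here, so reads of an antisense RNA and of its partner may not be told apart. Of these 12 genes, 6 had been listed as pericyte genes.

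The genes with the largest excess over endothelium were Carmn, Myom1, C1qtnf7, Pde3a, Sntb1, Pla2r1, Tbx3os1, Slc38a11, Adap2os and Morrbid. Their log2 ratios ran from 3.96 for Carmn, at 141 against 8.07 CPM, to 2.95 for Morrbid. Pde3a, a phosphodiesterase of cyclic nucleotides in vascular muscle, stood at 309 CPM against 34.7 CPM. Against Drd1+ neurons the largest excess was in Slc6a20a, Pdgfrb, Atp13a5, Abcc9, Vtn, Itga1, Adap2, Slc38a11, Tbx3os1 and Morrbid, with log2 ratios from 8.29 to 7.52. Itga1, the alpha 1 subunit of a collagen and laminin receptor, stood at 495 CPM in mural nuclei and 1.32 CPM in Drd1+ neurons.

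Endothelial genes were low throughout. Of 20 listed endothelial genes 20 were at least 2-fold lower than in endothelium in all 4 batches, where 6.22% of all genes were, and their median log2 ratio was -6.39 (batches -6.68, -6.21, -6.64 and -6.01). Cldn5, a tight-junction protein, stood at 9.88 CPM in mural nuclei and 1374 CPM in endothelium. Slco1a4, an organic anion transporter of the blood-brain barrier, stood at 12.2 CPM against 2080 CPM, and Mecom, a transcription factor gene, at 0.760 CPM, which is 1 count, against 802 CPM. The transcription factor genes Erg and Sox17 had 0 counts in the mural nuclei, where 3 counts would be 2.28 CPM, against 250.0 CPM and 174 CPM in endothelium. The other genes with the largest deficit were Adgrl4, Pglyrp1, Cyyr1, Slco1a4, Edn1, Prom1 and Clic5. Flt1, a receptor for vascular endothelial growth factors, stood at 132 CPM in mural nuclei (122, 190, 100.5 and 102) against 2793 CPM, and was found in 16.0% of mural nuclei thinned to 1000 UMIs, 78.9% of endothelium nuclei and 0.305% of Drd1+ neurons. Only 5 of the 390 mural nuclei held 10 or more UMIs of the endothelial list (1.28%).

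Fibroblasts, the other perivascular cell type of the series, shared some genes with the mural cluster and not others. Of 12 listed fibroblast genes, 8 reached 10 CPM and only Cped1 was at least 2-fold higher than in endothelium in all 4 batches. Cped1 stood at 174 CPM in mural nuclei and 2348 CPM in fibroblasts. The collagen-binding proteoglycan gene Dcn stood at 20.5 CPM against 1146 CPM, and Bnc2 at 9.88 CPM against 1016 CPM. Slc6a20a, a proline transporter gene counted as a pericyte marker, stood at 543 CPM over the whole mural cluster and 1024 CPM in fibroblasts, but at 1385 CPM in the mural nuclei with few neuronal transcripts described later, so its order depended on the nuclei compared. Tbx18 stood at 59.3 against 390.0 CPM. Pdgfrb and Vtn were also present in fibroblasts, at 327 and 1312 CPM. Of the lists of other cell types, 0 of 8 astrocyte, 0 of 6 oligodendrocyte and 0 of 7 microglia and macrophage genes were at least 2-fold apart from endothelium in all 4 batches, where 1.69% of all genes were higher and 6.22% lower.

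Genes of the signalling pathways between endothelium and mural cells were compared next, where 1.69% of all genes were at least 2-fold higher and 6.22% lower in all 4 batches. In the platelet-derived growth factor family, only the receptor gene Pdgfrb was at least 2-fold higher in mural nuclei in all 4 batches, and the ligand genes Pdgfb (9.88 against 182 CPM) and Pdgfd (13.7 against 332 CPM) were lower, of 6 genes compared. Pdgfra, the receptor of fibroblasts and oligodendrocyte precursors, stood at 10.6 CPM in mural nuclei and 347 CPM in fibroblasts. Of 12 Notch genes, the receptor gene Notch3 and the target gene Hey2 were higher, and Notch4, Jag2 and Dll4 were lower. Notch3 stood at 374 CPM (341, 482, 213 and 429) against 108 CPM, and Dll4, a ligand of arterial endothelium, at 1.52 against 46.8 CPM. Jag1, another ligand gene, stood at 66.8 and 64.6 CPM over the whole cluster. Counts of several of the pathway lists changed when only nuclei with few neuronal transcripts were compared, as given with that set of nuclei.

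Of 9 genes of the angiopoietin and vascular endothelial growth factor pathways, 6 were at least 2-fold lower in all batches, beside 6.22% of all genes: the receptor genes Tek, Tie1, Flt1, Kdr and Nrp1 and the ligand gene Vegfc. Angpt1, the ligand that mural cells present to Tek, stood at 42.5 CPM in mural nuclei (31.7, 52.4, 23.2 and 63.4) and 16.6 CPM in endothelium, and did not reach 2-fold in every batch. Of 10 transforming growth factor beta genes, 6 were lower over the whole cluster, against the same background, and 0 were higher. Acvrl1 and Eng, receptor genes of endothelium, stood at 16.0 against 205 CPM and 51.7 against 477 CPM. Tgfbr1 differed little, with 41.8 and 40.6 CPM.

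Some genes of membrane excitability and of the response to vasoactive signals were higher, beside 1.69% of all genes. Of 11 potassium channel and calcium-handling genes, 5 were at least 2-fold higher than in endothelium in all 4 batches, among them Kcnj8, Abcc9 and Kcnj12, and 0 were lower. Kcnj12, an inward rectifier potassium channel gene, stood at 26.6 CPM against 4.51 CPM. Kcnj11 and Abcc8, which form the ATP-sensitive channel of other tissues, stood at 2.28 and 9.12 CPM in mural nuclei. Of 14 genes of vasoactive receptors and their signalling, of which 9 reached 10 CPM, Ednra, P2ry14 and Pde3a were higher. Ednra, the endothelin receptor of mural cells, stood at 119 CPM (131, 102, 65.7 and 169) against 23.7 CPM. P2ry14, a receptor for UDP-glucose, stood at 324 CPM against 76.9 CPM. The contractile receptor genes Agtr1a and P2rx1 were at 1 and 0 counts, at or under the limit of 3 counts.

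Matrix and transport genes varied from gene to gene, where 1.69% of all genes were higher and 6.22% lower. Of 18 basement membrane genes, Lama2, Lamc3, Vtn and Itga8 were at least 2-fold higher than in endothelium in all 4 batches and Lama5 and Fn1 were lower. Lama2, a laminin chain of mural and fibroblast origin, stood at 419 CPM (360.3, 516, 240 and 546) against 81.4 CPM, with 938 CPM in fibroblasts. Lama5, the laminin chain of mature endothelium, stood at 11.4 against 45.6 CPM, and Fn1, fibronectin, at 9.88 against 413 CPM. The collagen IV genes Col4a1 and Col4a2 stood at 111 and 112 CPM, below their levels of 230 and 192 CPM in endothelium. Of 9 transport genes listed for mural cells, Slc6a20a, Slc19a1, Slc38a11, Atp13a5 and Slc16a12 were higher and Slc22a8 was lower. Slc38a11, an amino acid transporter gene, stood at 305 CPM (224, 375, 158 and 468) against 37.5 CPM, and Slc22a8, an organic anion transporter gene, at 72.9 against 230.1 CPM.

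Most UMIs of the smooth muscle list lay in few nuclei, though not for every gene of it. Over the whole cluster, 9 of 12 listed genes reached 10 CPM and 0 were at least 2-fold apart from endothelium in all 4 batches, where 1.69% of all genes were higher and 6.22% lower. Acta2, smooth muscle actin, stood at 58.5 CPM over the mural cluster (21.9, 52.4, 46.4 and 130.2) and Myh11, smooth muscle myosin, at 69.9 CPM (43.8, 82.7, 23.2 and 134). Of the 464 UMIs of these genes in the cluster, 277 (59.7%) lay in 24 nuclei with 5 or more, which are 6.15% of the cluster, while 244 nuclei had none. In those 24 nuclei, which these UMIs chose, Acta2 stood at 899 CPM and Myh11 at 873 CPM, against 6.45 and 20.2 CPM in the other mural nuclei. Mylk had 53 counts in the 24 nuclei and 115 in the rest, and Des 1 and 12. Every other gene of the list had more counts in the 24 nuclei than in the rest. Of the 18 pericyte genes, which did not choose the 24 nuclei, 10 had a lower level there and 8 a higher one. This is close to an even split, with no fold threshold, and gives no direction for the list. Among the lower, Atp13a5 stood at 287 against 1310 CPM, Kcnj8 at 26.1 against 156 CPM and Slc6a20a at 39.1 against 574 CPM. Among the higher, Slc38a11 stood at 547 against 290.4 CPM, Higd1b at 156 against 54.9 CPM and Mcam at 156 against 71.8 CPM. Of the mural genes, Vtn stood at 886 against 2804 CPM, Pdgfrb at 287 against 685 CPM and Rgs5 at 782 against 379 CPM. The 24 nuclei hold few counts, with 2 counts of Kcnj8, 3 of Slc6a20a and 60 of Rgs5, and the split was made after the values were seen. Nuclei with 5 or more of these UMIs were 4.35% of endothelium (37 nuclei) and 0.0220% of all other annotated nuclei (12 of 54431).

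Neuronal genes were the feature that did not follow the name. Over the whole cluster, 0.135% of all genes were at least 2-fold lower than in Drd1+ neurons in all 4 batches. None of 17 projection neuron genes and none of 8 pan-neuronal genes was among them, which does not set these lists apart. Of the projection neuron genes 3 were higher, beside 7.59% of all genes. Those 3 were Drd2, Adora2a and Penk, which mark the other class of projection neuron. The median log2 ratios to Drd1+ neurons were -0.39 for projection neuron genes and -0.57 for pan-neuronal genes. Phactr1, a regulator of actin and of protein phosphatase 1, stood at 5849 CPM in mural nuclei (6503, 5246, 6867 and 4745) against 7395 CPM in Drd1+ neurons and 3033 CPM in endothelium. Pde10a, the phosphodiesterase of projection neurons, stood at 2311 CPM (2386, 2404, 2693 and 1735) against 3032 CPM and 1125 CPM. Meg3, a long noncoding RNA abundant in neurons, stood at 2331 CPM (2344, 1919, 3095 and 2143) against 3831 CPM and 1306 CPM. The genes of at least 50 CPM with the largest deficit against Drd1+ neurons were Cntnap5c, Il1rapl2, Lingo2, Drd1, Adarb2, Cntnap3, Sntg2, Nexmif, Klf8 and Ptprt, with log2 ratios from -2.06 to -1.28. Relative to endothelium the projection neuron genes had a median log2 ratio of 0.85 and the pan-neuronal genes of 0.87.

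A count of these genes nucleus by nucleus split the cluster. The 25 projection neuron and pan-neuronal genes together gave at most 2% of the UMIs in 257 nuclei and over 2% in 133 (34.1%). Only 2 nuclei lay between 1.5 and 3%, the highest under the limit at 1.90% and the lowest over it at 2.73%. The limit was chosen after the values were seen, so the split is a description of the nuclei and names no cell type. The median neuronal share was 0.420% on the low side and 4.34% on the high side, against 4.57% in Drd1+ neurons. The nuclei under the limit had a median of 1191 UMIs, 797 genes and 5.20% mitochondrial counts. Those over it had 6999 UMIs, 2944 genes and 1.04% mitochondrial counts, close to the 6505 UMIs, 2673 genes and 1.12% of Drd1+ neurons. The nuclei over the limit held 984888 of the 1316388 counts of the cluster, so CPM over the whole cluster weigh them most.

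**Figure D2:**
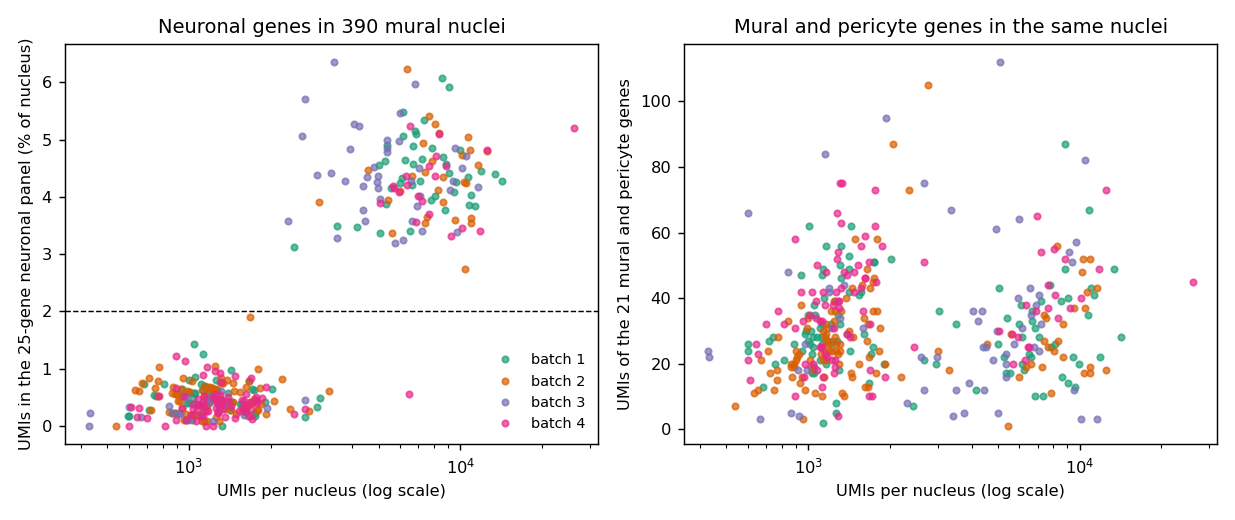
The 390 mural nuclei, coloured by batch, by UMIs per nucleus on a log axis against their UMIs in the 25 neuronal genes, as a percentage of the nucleus (left; the dashed line is the 2% limit), and against their UMIs of the 21 mural and pericyte genes (right). Points fall into a shallow set under the limit with a median of 1191 UMIs and a deeper set over it with a median of 6999 UMIs, and the sets overlap in mural and pericyte UMIs, with medians of 28 and 29.

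The nuclei on both sides carried nearly the same median number of mural transcripts. The 3 mural and 18 pericyte genes gave a median of 28 UMIs per nucleus under the limit and 29 over it, and by batch 28, 24, 31 and 35.5 against 28, 26, 25 and 38. Of these 21 genes, 20 differed by less than 1.5-fold in mean UMIs per nucleus, the exception being P2ry14, and the median ratio of over to under was 1.01 (range 0.705 to 1.53). This was not particular to these genes. Of the endothelial list, all 4 genes with at least 40 counts were within 1.5-fold too (median ratio 1.06), and 2 of 3 such smooth muscle genes were. Vtn averaged 9.02 UMIs per nucleus under the limit and 9.23 over it, Pdgfrb 2.30 and 2.11, and Atp13a5 4.38 and 3.91. Pdgfrb was detected in 83.7% of the nuclei under the limit and 82.7% of those over it, and Vtn in 91.4% and 92.5%. Drd1+ neurons of similar depth to the nuclei over the limit had Pdgfrb in 0.753% and Vtn in 5.82% of nuclei.

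Neuronal transcripts, on which the limit was set, differed widely: all 17 projection neuron genes were higher over the limit, by 4.39 to 582 times (median 17.3), and all 8 pan-neuronal genes by 13.2 to 588 times (median 136). Phactr1 averaged 0.510 UMIs per nucleus under the limit and 56.9 over it, and Rbfox1, a neuronal splicing factor gene, 0.249 and 50.4. Pdgfrb stood at 1783 CPM under the limit and 284 CPM over it, since CPM divides by the depth of the nuclei. Of the 133 nuclei over the limit, 39 had UMIs of Drd1 alone, 59 of Drd2 alone, 7 of both and 28 of neither. Of the 257 under it, 10 had Drd1 alone, 7 had Drd2 alone, 0 had both and 240 had neither.

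**Figure D3:**
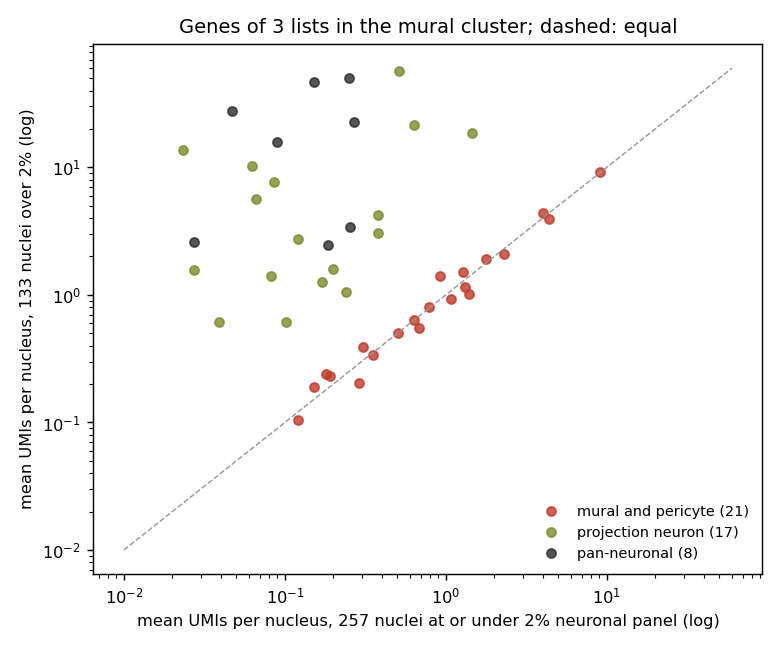
Mean UMIs per nucleus of single genes in the 257 mural nuclei at or under the 2% limit (horizontal, log axis) and in the 133 over it (vertical, log axis), for 21 mural and pericyte, 17 projection neuron and 8 pan-neuronal genes; the dashed line marks equal values. Mural and pericyte genes lie along the line, with ratios of 0.705 to 1.53, and neuronal genes lie 4.39 to 588 times above it.

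In the 257 nuclei at or under the limit, 10 of 17 projection neuron and 7 of 8 pan-neuronal genes were at least 2-fold lower than in Drd1+ neurons in all 4 batches, beside 11.6% of 11358 genes, with medians of -1.80 and -4.66, and the limit had been set on these genes. All 18 pericyte genes were higher in these 257 nuclei, beside 11.9% of genes, with a median of 7.06. Among the genes of at least 50 CPM with the largest deficit, Kctd8, Il1rapl2, Osbp2 and Cntnap5c had 0 counts in the nuclei at or under the limit, where 3 counts would be 9.05 CPM, against 564, 348, 249.5 and 194 CPM in Drd1+ neurons. In the nuclei over the limit 16 of 18 pericyte genes were still at least 2-fold higher than in Drd1+ neurons in all 4 batches. That compares with 3.93% of all genes, and the pericyte median was 4.66. None of the projection neuron genes was lower there, beside 0.0598% of all genes, which does not set that list apart.

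The nuclei at or under the limit were also compared with all endothelium nuclei, where 3.8% of 11454 genes were higher and 9.56% lower. Endothelium kept its nuclei over the limit (27.5%), so only the mural side was filtered. Without them, endothelium stood at 334 instead of 202 CPM for Atp13a5 and 175 instead of 108 CPM for Notch3. Ratios of these genes are thus smaller against the filtered endothelium, and the calls that follow were made against all endothelium nuclei. Of 18 pericyte genes, 17 were at least 2-fold higher in all 4 batches, and the median log2 ratio was 3.22. Of 20 endothelial genes 17 were lower. Of 12 smooth muscle genes, Myh11, Mylk, Lmod1 and Map3k7cl were higher, and the median was 2.06. In the Notch list Jag1 (172 against 64.6 CPM) and Heyl (78.4 against 12.3 CPM) were higher beside Notch3 and Hey2, and Jag2 and Dll4 were lower, but not Notch4. Angpt1 was also higher, at 115 against 16.6 CPM, and of the 6 lower genes of its list Nrp1 lost its call. Of 10 transforming growth factor beta genes only Acvrl1 and Smad6 were lower, with a median of -0.86, so that Tgfb2, Tgfbr2, Eng and Smad7 lost their calls. In the platelet-derived growth factor list Pdgfa was higher beside Pdgfrb. Of 18 basement membrane genes 9 were higher and only Fn1 was lower, and of 9 transport genes 6 were higher and 0 lower. Of 11 potassium channel and calcium-handling genes, 7 were higher. Of the 14 genes of vasoactive signalling, 7 were higher, the added ones being Gucy1a1, Gucy1b1, Prkg1 and Pde5a, which carry the nitric oxide and cyclic GMP response. Pde10a still stood at 489 CPM in the nuclei at or under the limit, against 3032 CPM in Drd1+ neurons. Oligodendrocyte genes were also present: of 6 listed, the myelin genes Mbp (4371 against 1343 CPM) and Mobp (833 against 259.5 CPM) were at least 2-fold higher than in endothelium in all 4 batches. That list summed to 6326 CPM in the nuclei at or under the limit and 1974 CPM in endothelium, and its part in the other results was not tested.

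Likeness to other clusters changed with the limit. Over 8948 genes, the log2 profile of the whole mural cluster had a Pearson correlation of 0.872 with Drd2+ neurons, 0.870 with Drd1+ neurons and 0.835 with endothelium. The nuclei under the limit were most like fibroblasts (0.743) and endothelium (0.740), with 0.531 for Drd1+ neurons, and those over it were most like Drd2+ (0.925) and Drd1+ neurons (0.924). These correlations are across genes, which are not independent, and depth differs between the profiles.

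Nuclei over the limit were also frequent in endothelium (234 of 851, 27.5%), and made up 16.2% of the ependyma cluster (56 of 346) and 11.3% of the polydendrocyte and oligodendrocyte cluster (55 of 488). Their shares were lower in fibroblasts (2.27%), macrophages (0.341%), astrocytes (0.0842%) and oligodendrocytes (0.0497%). Within the mural cluster their share was 37.8%, 23.8%, 68.3% and 21.6% in batches 1 to 4, so batch 3 stood above the others. By strain it ran from 19.1% of nuclei in NZO/HlLtJ to 43.1% in C57BL/6NJ. Droplets with nuclei of 2 cells of 1 mouse would pass the strain-based doublet calls, and their part in these nuclei was not tested.

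Rgs5, which was lower in the mural cluster than in endothelium, was not evenly spread over endothelium nuclei. The 19 mural and pericyte genes other than Rgs5 and Ebf1 gave at least 20 UMIs in 134 of the 851 endothelium nuclei (46, 61, 0 and 27 in batches 1 to 4, from 24 mice). These nuclei had a median of 7137 UMIs and 156 UMIs of endothelial genes, Rgs5 was detected in 99.3% of them, and its level was 4422 CPM. In the 618 endothelium nuclei with at most 2 such UMIs, Rgs5 stood at 507 CPM. In mural nuclei it stood at 992 CPM at or under the neuronal limit and 204 CPM over it, so its order against endothelium depended on which nuclei were compared. Batch 3, with 0 of the 134 nuclei, was the batch in which endothelium had its lowest Pdgfrb, Vtn and Rgs5. Pdgfrb and Vtn were among the genes that chose the 134 nuclei, so for them this link follows in part from the choice. None of the 134 nuclei was over the neuronal limit. A nucleus of the mural cluster held on average 1.36 UMIs of Rgs5, against 41.4 in the 134 nuclei. Whether the 134 droplets held both a mural and an endothelial nucleus was not tested.

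Mural nuclei were shallower than endothelium nuclei of the same mice. Over the 31 mice with at least 5 nuclei in both clusters, the mean of the mouse medians was 2513 ± 1751 UMIs (SD) in mural nuclei and 3874 ± 1113 UMIs in endothelium, a difference of -1361 UMIs that was negative in 24 of 31 mice (two-sided permutation test by sign flips, adjusted p = 0.00162). Detected genes averaged 1365 ± 709 against 2009 ± 442, lower in 24 of 31 mice (same permutation test, adjusted p = 0.00108). The mitochondrial share averaged 3.35 ± 1.66% against 4.32 ± 1.59%, lower in 23 of 31 mice (same permutation test, adjusted p = 0.00162). Without the nuclei over the neuronal limit in both clusters, which left 24 mice, the difference was -1475 UMIs, and that of the mitochondrial share was -0.58 percentage points, no longer past the threshold (permutation test, adjusted p = 0.0883). Adjustment was over the 3 measures.

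The share of mural nuclei was compared between strains over mice. It was lowest in a mouse of 129S1/SvImJ (0.128% of its annotated nuclei, 2 nuclei) and highest in one of A/J (1.53%, 29 nuclei). Over the 4 mice of a strain, A/J averaged 0.997 ± 0.470% (SD), with 1.14, 0.928, 0.398 and 1.53% in batches 1 to 4, and C57BL/6NJ 0.877 ± 0.119%. NZO/HlLtJ averaged 0.717 ± 0.321%, CAST/EiJ 0.667 ± 0.151%, 129S1/SvImJ 0.611 ± 0.338%, PWK/PhJ 0.591 ± 0.0792%, WSB/EiJ 0.550 ± 0.0565% and NOD/ShiLtJ 0.510 ± 0.223%. Neighbours in this order overlapped in their mice, and so did A/J and NOD/ShiLtJ, while the 4 mice of C57BL/6NJ (0.736 to 0.993%) lay above all mice of PWK/PhJ (0.495 to 0.659%) and WSB/EiJ (0.490 to 0.609%). Counting only nuclei at or under the neuronal limit, these strains overlapped. C57BL/6NJ then had 0.621, 0.335, 0.265 and 0.754% in batches 1 to 4, with up to 0.424% in PWK/PhJ and 0.498% in WSB/EiJ. Over all strains the difference did not pass the threshold (F = 1.15, permutation test with strain labels permuted within batch, p = 0.371).

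The test depended on 1 batch: without batch 3 the F statistic was 3.19 (permutation p = 0.0165), and without batch 1, 2 or 4 the p was 0.651, 0.329 or 0.812. Batch 3 had the lowest share of mural nuclei, 0.507% of its annotated nuclei against 0.722%, 0.781% and 0.755% in batches 1, 2 and 4. Counting only nuclei at or under the neuronal limit, the share was 0.449%, 0.595%, 0.161% and 0.591%, and the strains gave a permutation p of 0.133. Fewer mural cells in the tissue and fewer recovered nuclei cannot be told apart in these data.

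**Figure D4:**
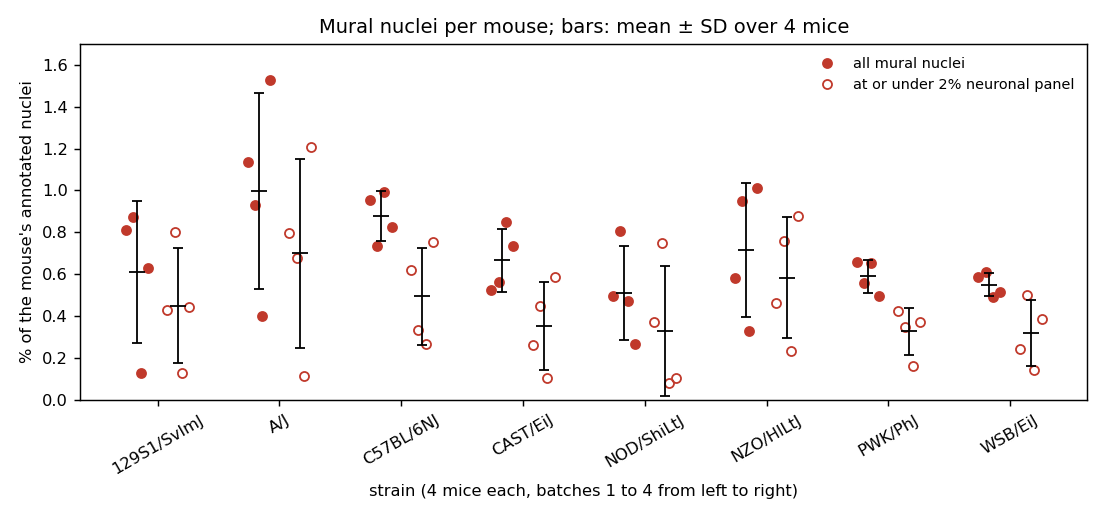
Mural nuclei as a percentage of the annotated nuclei of each mouse, by strain; filled points are all mural nuclei, open points those at or under the 2% neuronal limit, and bars the mean ± SD over 4 mice. A/J has the highest mean (0.997%) and NOD/ShiLtJ the lowest (0.510%), and these strains overlap in their mice.

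Gene expression was compared between strains in counts summed over the mural nuclei of a mouse. Most counts of the cluster came from nuclei over the neuronal limit, 984888 of 1316388 in all and 237519 of 258778 in batch 3. Strain values over all mural nuclei thus weigh those nuclei most. Of 1004 genes tested in 31 mice, 11 differed between strains (1.1%; edgeR quasi-likelihood test of the strain term with Benjamini-Hochberg adjustment, adjusted p under 0.05), and 95 had an unadjusted p under 0.05. None of the 3 mural and none of the 11 pericyte genes tested was called over all mural nuclei, with an adjusted p of 0.663 for Vtn in edgeR, which does not show that the strains are alike in these genes. Vtn and Abcc9 were called when only nuclei at or under the neuronal limit were tested (adjusted p = 0.00325 and 0.0128 in edgeR). These were 1 of 3 mural and 1 of 10 pericyte genes in that test, beside 20 of all 285 genes (7.02%). The pericyte count is near that share.

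Cwc22, which encodes a splicing factor and is known to lie in extra copies in some mouse strains, was higher in WSB/EiJ than in every mouse of the other strains. Its mural level in WSB/EiJ was 1297, 1175, 1351 and 978 CPM in batches 1 to 4, while the means of the other 7 strains ran from 15.8 CPM in NOD/ShiLtJ to 102 CPM in NZO/HlLtJ (adjusted p = 1.57e-10 in edgeR). The level in Drd1+ neurons of WSB/EiJ was 1590 CPM against 31.2 to 54.4 CPM elsewhere, so the difference is not particular to mural nuclei, and reads of the copies may not be told apart. In the nuclei at or under the neuronal limit, Cwc22 stood at 1454 ± 509 CPM in WSB/EiJ (n = 3) against strain means of 0 to 68.7 CPM. Cwc22 was called in all 12 alternatives in which it was tested.

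AC149090.1, a transcript named by its clone, was highest in CAST/EiJ (1764 ± 1232 CPM, n = 4, from 727 to 3523 CPM) and lowest in A/J (92.9 ± 49.0 CPM, n = 4; adjusted p = 7.18e-10 in edgeR). In Drd1+ neurons it stood at 2468 CPM in CAST/EiJ and 119 CPM in A/J. In the nuclei at or under the neuronal limit AC149090.1 stood at 397 ± 263 CPM in CAST/EiJ (n = 3, 11 counts). There NZO/HlLtJ was lowest (56.8 CPM) and A/J stood at 77.5 CPM. The gene was not tested in those nuclei, so its call was made only with the nuclei over the limit included. Catspere2, a subunit gene of a sperm calcium channel, was highest in PWK/PhJ at 294, 568, 405 and 340.4 CPM and had its lowest mean in 129S1/SvImJ, at 80.9, 0 and 0 CPM (adjusted p = 0.000651 in edgeR). In the mice at 0, 3 counts would be 139 and 96.6 CPM, above the CAST/EiJ mean of 47.2 CPM, so the lowest strain is not settled. In Drd1+ neurons Catspere2 was highest in PWK/PhJ (548 CPM) and lowest in CAST/EiJ (55.2 CPM). The call of Catspere2 was lost without batch 3 (adjusted p = 0.0743 in edgeR). In the nuclei at or under the neuronal limit Catspere2 stood at 160 ± 76.1 CPM in PWK/PhJ (n = 3, 5 counts). WSB/EiJ had 0 counts there, against 302 CPM over all mural nuclei, and the gene was not tested in those nuclei. Nkain2, which encodes a partner of the sodium pump, was lower in CAST/EiJ (883, 364, 550 and 218 CPM) than the means of 1811 to 2683 CPM in the other strains (adjusted p = 0.00759 in edgeR), and lost its call without batch 1 or batch 3. The lowest PWK/PhJ mouse, at 638 CPM, lay within the range of CAST/EiJ. In Drd1+ neurons, too, Nkain2 was lowest in CAST/EiJ, at 788 CPM against means of 3198 to 3826 CPM. Over all strains it stood at 462 CPM in mural nuclei under the neuronal limit and 2738 CPM in those over it. In the nuclei at or under the limit A/J was highest, at 1566 ± 850.0 CPM (n = 3, 124 counts). CAST/EiJ stood at 141 ± 173 CPM there (n = 3, 4 counts), C57BL/6NJ had 0 counts, and the remaining strains had 1 or 2 counts each. Strains other than A/J cannot be put in order at such counts. Of all clusters Nkain2 was highest in oligodendrocytes, at 8949 CPM, and the part of oligodendrocyte transcripts in these values was not tested.

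Snhg11, a long noncoding RNA of neurons, had its lowest mean in NZO/HlLtJ (121, 336, 127 and 152 CPM) against means of 538 to 1448 CPM elsewhere (adjusted p = 0.000369 in edgeR). Mice overlapped, as the lowest C57BL/6NJ mouse had 97.9 CPM and the lowest A/J mouse 178 CPM. Snhg11 stood at 30.2 CPM in mural nuclei under the neuronal limit and 1345 CPM in those over it, and NZO/HlLtJ had the lowest share of nuclei over the limit. In Drd1+ neurons Snhg11 was lowest in NZO/HlLtJ as well, at 706 CPM against 1167 to 2527 CPM. Its call was lost without batch 1 (adjusted p = 0.114 in edgeR), without batch 3 (0.0743) and without the batch term.

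Itm2b, which encodes a membrane protein altered in a familial dementia, was highest in NZO/HlLtJ, with 1133, 773, 1076 and 1241 CPM, all above every mouse of the other strains, the highest of which had 766 CPM (means of 334 to 590 CPM, adjusted p = 0.0321 in edgeR). Pde4d, a cyclic AMP phosphodiesterase gene, was also highest in NZO/HlLtJ at 1740, 1916, 2279 and 2735 CPM (other means 576 to 1462 CPM, adjusted p = 0.0359 in edgeR), and overlapped mice of other strains. In Drd1+ neurons Itm2b had means of 147 to 190 CPM with no strain apart from the rest, while Pde4d, at 91.3 to 195 CPM, had its highest mean in NZO/HlLtJ there too. Both genes were higher in mural nuclei under the neuronal limit, Itm2b at 1207 against 280.2 CPM and Pde4d at 2733 against 434 CPM over it, and the share of such nuclei was highest in NZO/HlLtJ. In the nuclei at or under the limit NZO/HlLtJ was again highest, with Itm2b at 2114 ± 582 CPM (n = 4) against strain means of 830.5 to 1403 CPM and Pde4d at 4534 ± 1211 CPM (n = 4) against 1856 to 3749 CPM, and neither gene was called. Itm2b kept its call in 4 of 12 alternatives and Pde4d in 6 of 12, and both lost it without batch 1 and without batch 3.

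Of the other called genes, Cyp7b1, an oxysterol hydroxylase gene, was highest in PWK/PhJ (569 ± 277 CPM, n = 4) and Rgs6, a regulator of G-protein signalling, highest in 129S1/SvImJ (838 ± 922 CPM, n = 3) and lowest in PWK/PhJ (58.9 ± 103 CPM, n = 4; adjusted p = 0.0321 for both in edgeR). Pid1, a gene of insulin signalling, was highest in NZO/HlLtJ (664 ± 149 CPM) and lowest in NOD/ShiLtJ (119 ± 90.4 CPM; adjusted p = 0.0359 in edgeR). In Drd1+ neurons the same strains had the highest means, PWK/PhJ for Cyp7b1 (130 CPM against 69.3 to 94.0 CPM) and NZO/HlLtJ for Pid1 (67.5 CPM against 29.9 to 47.5 CPM). Rgs6 was highest there in NZO/HlLtJ (159 CPM), with 84.2 CPM in 129S1/SvImJ. The 3 mice of 129S1/SvImJ in the fit had 243, 370.5 and 1900.1 CPM of Rgs6, so its place in the order rests on 1 mouse. Cyp7b1 and Pid1 lost their calls without any 1 of the 4 batches, and Rgs6 without batch 1, 3 or 4. Mural nuclei under the neuronal limit had more of each gene than those over it. Pid1 stood at 956 against 170 CPM, Rgs6 at 869 against 114 CPM and Cyp7b1 at 474 against 137 CPM. In the nuclei at or under the limit Pid1 was highest in 129S1/SvImJ (1623 ± 241 CPM, n = 3), with NZO/HlLtJ at 1332 ± 249 CPM (n = 4). Rgs6 and Pid1 were called in those nuclei, and Cyp7b1 was not. The remaining called gene, Gabrg3, a GABA receptor subunit gene, averaged 714 CPM over the mice (adjusted p = 0.0359 in edgeR) and is named after its values were seen. Acp1, a phosphatase gene, was too low in mural nuclei to be tested, with strain means of 8.49 to 94.4 CPM.

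**Figure D5:**
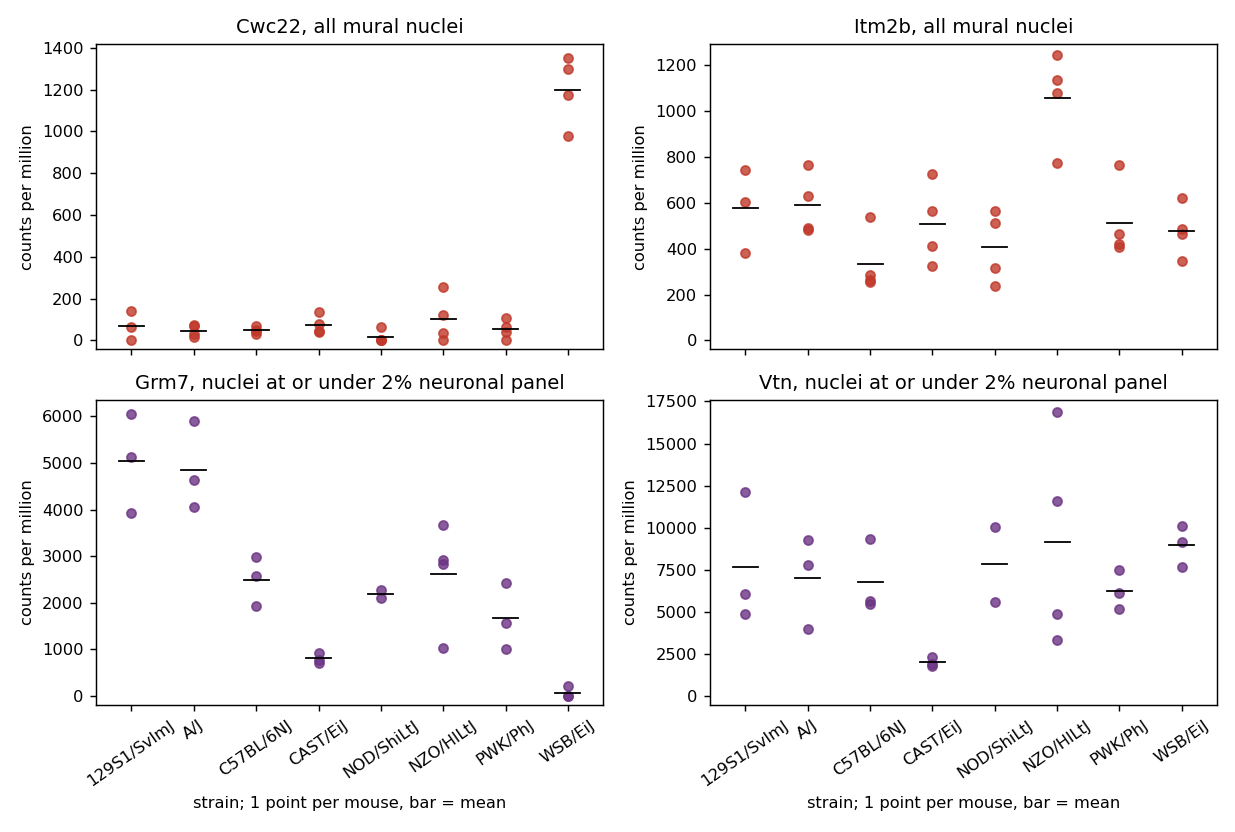
CPM by strain, 1 point per mouse and a bar at the strain mean, for Cwc22 and Itm2b over all mural nuclei (31 mice) and for Grm7 and Vtn in the mural nuclei at or under the 2% neuronal limit (24 mice). Cwc22 is high in the 4 WSB/EiJ mice alone, Itm2b is highest in NZO/HlLtJ, Grm7 is near 0 in WSB/EiJ, and Vtn is lowest in the 3 CAST/EiJ mice.

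When the strain fit was repeated on nuclei at or under the neuronal limit, 24 mice remained and 20 of 285 genes were called (7.02%), an alternative added after the values were seen. The values of some of these genes, chosen after they were seen, are given as descriptions. Grm7, a metabotropic glutamate receptor gene, stood at 2905 CPM in these nuclei, above endothelium (857 CPM), fibroblasts (114 CPM) and astrocytes (26.6 CPM) and near the 2352 CPM of Drd1+ neurons. It was highest in 129S1/SvImJ (5133, 3934 and 6057 CPM) and A/J (4627, 4046 and 5893 CPM), and intermediate in C57BL/6NJ (2499 ± 529.9 CPM, n = 3) and NZO/HlLtJ (2613 ± 1127 CPM, n = 4). CAST/EiJ had 779, 717 and 932 CPM, and WSB/EiJ had 0, 217 and 0 CPM, which is 3 counts in 3 mice. The mice of WSB/EiJ did not overlap any other strain in this set. At 5240 to 13840 counts a mouse, 3 counts in a WSB/EiJ mouse would be 217 to 573 CPM. Over all mural nuclei Grm7 was not called (adjusted p = 0.119 in edgeR).

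Vtn in the nuclei at or under the limit was lowest in CAST/EiJ, with 1891, 1793 and 2329 CPM, while PWK/PhJ had the lowest other strain mean (6255 CPM) and NZO/HlLtJ the highest (9163 CPM), and the lowest other mouse had 3318 CPM. Gpc6, a heparan sulfate proteoglycan gene, was highest in C57BL/6NJ (2126 ± 614 CPM, n = 3, 73 counts). Its lowest means were in WSB/EiJ (203 ± 65.3 CPM, n = 3, 5 counts) and CAST/EiJ (295 ± 184 CPM, n = 3, 8 counts). At so few counts WSB/EiJ and CAST/EiJ cannot be told apart. Abcc9 stood at 2618 ± 717 CPM in WSB/EiJ (n = 3) and 1988 ± 1057 CPM in NOD/ShiLtJ (n = 2), against 485 ± 280.2 CPM in PWK/PhJ (n = 3). Pcdh9, a protocadherin gene at 14178 CPM in oligodendrocytes, reached 6424 CPM in 1 A/J mouse and had 0 counts in the 3 mice of 129S1/SvImJ. C57BL/6NJ, WSB/EiJ, NOD/ShiLtJ and NZO/HlLtJ had only 1, 1, 2 and 4 counts of it. Among strain means in these nuclei, Pdgfrb was lowest in PWK/PhJ (1480 CPM) and highest in NZO/HlLtJ (2392 CPM). Rgs5 was lowest in CAST/EiJ (363 ± 160 CPM, n = 3) and highest in WSB/EiJ (2222 ± 1594 CPM, n = 3). Neither Pdgfrb nor Rgs5 was among the 20 called genes.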

How the data were processed

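Nuclei of frozen striatum were counted with the 10x Multiome assay in 4 pooled batches. The deposited count tables hold whole UMI counts per gene and barcode, and the submitters' processing notes name Cell Ranger ARC 2.0.0, bcl2fastq 2.20.0.422 and build mm10/GRCm38. Per the deposited table of barcodes, the authors assigned mice with Demuxlet, kept nuclei with over 200 and under 7500 genes and under 15% mitochondrial counts, and ran DoubletFinder; its other columns are categories per barcode. How differences between each strain and the reference affect counting was not tested. CPM were computed here from summed deposited counts. Ratios are log2 with a pseudocount of 1 CPM, and a list gene was counted where it reached 10 CPM and differed 2-fold in all 4 batches. Mice are summed over at least 5 nuclei. Strain was tested with edgeR 4.0.16 (TMM, filterByExpr, batch as a term, quasi-likelihood, Benjamini-Hochberg), with DESeq2 1.42.0 as an alternative. Shares, after adding 0.5 nuclei, and depth were tested with 100000 permutations (Python 3.11.15, numpy 2.4.6, scipy 1.17.1, R 4.3.3). The strain fit was tested on simulated data. The mice of a batch were processed together, so batch number pairs the samples. Genes named are those on the lists with Pdgfrb, Rgs5 and Vtn, 12 leading genes, 10 in each direction of a comparison at 50 CPM or more, the 10 called strain genes of largest F at 20 CPM or more, and Cwc22, Catspere2 and Acp1. Grm7, Gpc6, Pcdh9 and Gabrg3 fall outside this rule and were named after their values were seen. Members and lists were chosen with earlier results of these data known. The batch tables hold 109337007 to 133840909 counts.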

Additional observations from a re-analysis of the deposited data

Results flagged for a closer look

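Of 100 groups of samples compared, 11 had a sample whose gap to the nearest other sample was large against the range of its group, and chance alone gives about 5. Vtn in endothelium stood at 54.8 CPM in batch 3 and at 767 to 879 CPM in the others. Batch 3 endothelium held 0 of the 134 nuclei rich in mural UMIs, which were chosen in part by their UMIs of Vtn. The other 10 were single mice. Among called strain genes, Cwc22 stood at 63.0 CPM in 1 NOD/ShiLtJ mouse with 0 in the other 3, which is 2 counts and under the limit of 3 counts (94.5 CPM in that mouse). Snhg11 stood at 336 CPM in 1 NZO/HlLtJ mouse against 121 to 152 CPM. Nkain2 stood at 638 CPM in 1 PWK/PhJ mouse against 2161 to 2319 CPM, and Cyp7b1 at 121 CPM in 1 NZO/HlLtJ mouse against 405 to 443 CPM. Rgs6 stood at 213 CPM in 1 PWK/PhJ mouse against 0 to 22.5 CPM. Itm2b stood at 538 CPM in 1 C57BL/6NJ mouse against 252 to 283 CPM, and at 766 CPM in 1 PWK/PhJ mouse against 405 to 462 CPM. Pde4d stood at 2055 CPM in 1 C57BL/6NJ mouse against 340 to 541 CPM. Acp1 stood at 34.0 CPM in 1 NOD/ShiLtJ mouse and at 104 CPM in 1 WSB/EiJ mouse, with 0 in the other mice of each strain, which are 1 and 3 counts, at or under that limit.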

How the results depend on the processing

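Leaving out the nuclei over the 2% neuronal limit, chosen after seeing the data, moved the most values. The median log2 ratio over endothelium became -0.71 for projection neuron genes, -3.15 for pan-neuronal genes and -0.20 for fibroblast genes, each reversed, and -5.51 for endothelial genes. In these ratios only the mural side lost nuclei, by a limit set on neuronal genes, so the neuronal reversals follow from the construction of the limit. The summed level of the 12 fibroblast genes went the other way, from 314 to 579 CPM against 147 CPM in endothelium. Over Drd1+ neurons it became 7.06 for pericyte, 2.63 for endothelial and -1.80 for projection neuron genes, and over Drd2+ neurons 7.34, 2.63 and -1.94. The mitochondrial difference, for which both clusters lost their nuclei over the limit, became -0.58 percentage points. A pseudocount of 5 CPM gave -5.42 for endothelial genes over endothelium and 4.07 and 4.57 for pericyte genes over Drd1+ and Drd2+ neurons. A mean over nuclei gave 6.56 and 6.88 for pericyte genes and -1.10 and -1.12 for projection neuron genes. The cause of the other shifts was not tested.

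For the share of mural nuclei, leaving out 1 batch gave permutation p-values of 0.0165 to 0.812, the lowest without batch 3, and no replicate block gave 0.414. Strain genes called numbered 11 of 1004 tested (1.1%), 19 of 1004 with DESeq2 and 4 of 1004 with no replicate block. With no filter on low counts they numbered 62, but of 18224 genes (0.34%). Without 1 batch there were 2 to 11, of 867 to 1143 genes. Without the nuclei over the limit there were 20 of 285 or 24 of 289 (at least 5 or 3 nuclei). Without batch 3 there were 2 and without batch 1 there were 4. With a median of 10 mural nuclei per mouse, 1004 genes passed the filter on low counts.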

Other observations

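The deposited index of open-chromatin barcodes lists a varying part of the mural nuclei. Of those at or under the 2% neuronal limit it held 14.5%, 12.9%, 31.6% and 98.7% in batches 1 to 4, and of those over the limit 73.8%, 75.9%, 68.3% and 71.4%. In total it held 40.1% and 72.2%. In fibroblasts the shares were 55.6%, 32.5%, 43.5% and 100%. How the barcodes of this index were chosen is not given in the sources used here.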
